A study of Rattus norvegicus with 12 samples.

Results

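Fatty acid oxidation genes and targets of the peroxisome proliferator-activated receptors (PPARs) were followed in primary rat cardiomyocyte cultures given SIN-1, a sydnonimine that gives off nitric oxide and superoxide and so acts as a source of the oxidant peroxynitrite. The set was drawn up as 34 gene symbols. A gene was measured where a probe of the array carried its symbol alone in the platform annotation, which held for 33 of the 34 genes, each on 1 probe, among 18166 named genes in all. Cd36, the fatty acid translocase, shared its only listed probe with another symbol and has no value here. The 12 one-colour arrays fell into 4 groups of 3, wild-type control cells and cells treated for 70 min, 4 h or 8 h, which the design text calls biological triplicates without saying whether the cultures were separate. If they were not, the p-values measure only the spread between these samples. All groups grew in DMEM/F12 with 20% fetal bovine serum and 5% horse serum. The labels state no SIN-1 dose, no age or strain of the animals, no culture time for the control and no vehicle, so effects of time or vehicle cannot be told apart from those of SIN-1 in a comparison with control. All 3 such comparisons use the same control arrays. Expression is given as log2 values after RMA, a difference of 1 is a doubling of the linear value, and errors are given as SD over the 3 arrays of a group or as the SE of the fit.

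Fatty acids taken up by a heart cell are activated to acyl-CoA, passed into the mitochondrion by the carnitine shuttle and shortened by repeated beta-oxidation. The electrons of its acyl-CoA dehydrogenase step enter the respiratory chain through the electron transfer flavoprotein. In working heart muscle fatty acid oxidation is the main source of ATP. PPAR-alpha, a nuclear receptor that binds DNA together with a retinoid X receptor (RXR), switches on many genes of the route when fatty acids bind it, among them the pyruvate dehydrogenase kinases that hold back glucose oxidation.

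The label of the cells was checked against 16 measured cardiomyocyte markers. The levels of Myh6, Myh7, Actn2 and Ryr2, which encode the myosin heavy chains, alpha-actinin and the calcium release channel of heart muscle, lay in the controls at 3.99, 3.64, 4.25 and 4.21, under 4.33, the median over probes with no listed gene. Tnnc1 and Pln, which encode troponin C and phospholamban, read 7.22 and 8.16. Levels from different probes cannot be set against each other exactly, but the collagen gene Col1a1, a fibroblast marker, stood at the 99.9th percentile of all genes. Over all 16 cardiomyocyte markers the mean control level was 5.10, above 4.33, and over 10 fibroblast markers it was 8.96. Several defining transcripts of contractile heart muscle, though not the markers as a set, were thus near background. Between arrays of a group the correlation across genes ran from 0.9906 to 0.995. 3 arrays had a higher median over all probes than the other 9. They were 70 min replicate 3 (5.12), 70 min replicate 2 (5.114) and 4 h replicate 3 (5.09).

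Promoter sequences are shown first for the members that fell most at 70 min and have an entry in RefSeq's table for assembly GRCr8. Each runs from 250 bases before to 50 bases after the gene start, 5′ to 3′ on the gene's strand. Hadha is added because its window overlaps that of Hadhb. Capitals mark exact matches, on either strand, to AGGTCA, the half-site that PPAR and related receptors bind.

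Acadm, chr2:245542815-245543114, minus strand: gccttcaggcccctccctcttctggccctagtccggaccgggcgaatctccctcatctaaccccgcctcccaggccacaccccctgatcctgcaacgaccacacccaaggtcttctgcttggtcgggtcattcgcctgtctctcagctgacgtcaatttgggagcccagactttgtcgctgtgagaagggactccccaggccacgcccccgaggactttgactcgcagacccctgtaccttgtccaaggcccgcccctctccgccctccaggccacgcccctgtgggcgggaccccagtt
Pdk4, chr4:34568280-34568579, minus strand: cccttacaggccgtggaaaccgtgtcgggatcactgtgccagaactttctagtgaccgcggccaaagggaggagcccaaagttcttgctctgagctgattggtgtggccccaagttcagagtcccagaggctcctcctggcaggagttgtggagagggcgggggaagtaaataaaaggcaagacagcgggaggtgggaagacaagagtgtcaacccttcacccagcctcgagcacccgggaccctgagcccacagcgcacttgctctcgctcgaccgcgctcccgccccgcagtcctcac
Pdk2, chr10:80483863-80484162, minus strand: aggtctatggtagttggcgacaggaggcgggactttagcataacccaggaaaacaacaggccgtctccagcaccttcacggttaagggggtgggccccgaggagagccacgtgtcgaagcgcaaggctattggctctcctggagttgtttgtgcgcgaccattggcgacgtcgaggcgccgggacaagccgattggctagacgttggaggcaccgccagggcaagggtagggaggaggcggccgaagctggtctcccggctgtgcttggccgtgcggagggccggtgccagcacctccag
Eci1, chr10:13961000-13961299, plus strand: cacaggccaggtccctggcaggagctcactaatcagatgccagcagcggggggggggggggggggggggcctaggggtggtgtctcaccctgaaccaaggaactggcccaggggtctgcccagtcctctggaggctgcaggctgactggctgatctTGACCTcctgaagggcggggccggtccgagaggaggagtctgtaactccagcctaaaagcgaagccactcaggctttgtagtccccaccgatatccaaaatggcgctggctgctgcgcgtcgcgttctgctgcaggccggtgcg
Hadha, chr6:31907551-31907850, plus strand: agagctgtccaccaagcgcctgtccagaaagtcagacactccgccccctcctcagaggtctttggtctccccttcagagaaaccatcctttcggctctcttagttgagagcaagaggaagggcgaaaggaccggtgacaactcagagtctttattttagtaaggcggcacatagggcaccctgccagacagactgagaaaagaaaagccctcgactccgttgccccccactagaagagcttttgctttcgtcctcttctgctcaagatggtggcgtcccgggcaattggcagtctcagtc

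Of the 33 members, 27 had an entry, with 28 windows because Plin2 had more than 1. The full PPAR and RXR element, a direct repeat of that half-site with a single base between the copies, was found in 0 of the 28 windows on either strand, against 0.0538% of all 33469 promoters in the table. A looser form with any base at the fourth position of each copy, which includes the first form, was also in 0 of 28, against 0.415% of all. The estrogen-related receptor element TNAAGGTCA was in 0 of 28, against 1.2%. The half-site alone, which the other motifs contain and which was added once they gave no match, was in 5 windows (17.9%; Acadvl, Eci1, Eci2, Hadhb and Ucp3), against 16.2% of all promoters. In Eci1 it reads TGACCT, on the opposite strand, and begins 94 bases before the gene start. No match says only that these letters are not in these 300 bases. GC content of the windows ran from 40.7% to 73.7%, with a median of 60.5%, and the median number of CpG dinucleotides was 16. Over all promoters these medians were 51.7% and 7. The gene starts of Hadha and Hadhb, which encode the subunits of the trifunctional protein, lie 301 bases apart on chromosome 6 and face away from each other, and their windows share 200 bases. Ucp2 and Ucp3 are neighbours on chromosome 1, as are Acot1 and Acot2 on chromosome 6.

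After 70 min of SIN-1, 12 of the 33 genes fell and 2 rose. The genes that fell encode 7 of 12 beta-oxidation enzymes (Acadm, Acadvl, Hadh, Ech1, Eci1, Eci2 and Decr1), the carnitine carrier Slc25a20, the electron transfer enzyme Etfdh, the pyruvate dehydrogenase kinases Pdk2 and Pdk4, and the uncoupling protein Ucp2. Acsl1 and Ucp3 rose. The falls ran from 0.23 to 0.75 on the log2 scale, which is 1.17-fold to 1.69-fold. The calls are those of limma's moderated test over all genes with Benjamini-Hochberg adjusted p under 0.05, by which 14.6% of all 18166 genes were called at 70 min, 6.76% higher and 7.81% lower. Among the members 42.4% were called and 36.4% were lower. The median log2 fold change was -0.13 over the members and 0.03 over all genes. The genes were chosen with earlier results of these data known, so these shares are a description of the set.

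Brighter genes were called more often, and most members were bright. When the fit and the adjustment were redone on the genes at or above the median expression of 5.75 alone, 30.3% of them were called and 16.7% were lower. Of the 26 members among them 53.8% were called and 50% were lower, which includes Plin2, called in that fit (adjusted p = 0.0291). Every array of a treated group lay below every control array in 17 of the 33 genes at 70 min (51.5%, against 15% of all genes) and above in 2 (against 16.8%). Without the 3 arrays of highest median, which leaves 1 array at 70 min taken to vary like the other groups, 6 members passed, against 5.76% of all genes. They were Acadm, Ech1, Decr1, Etfdh, Pdk2 and Pdk4.

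**Figure D1:**
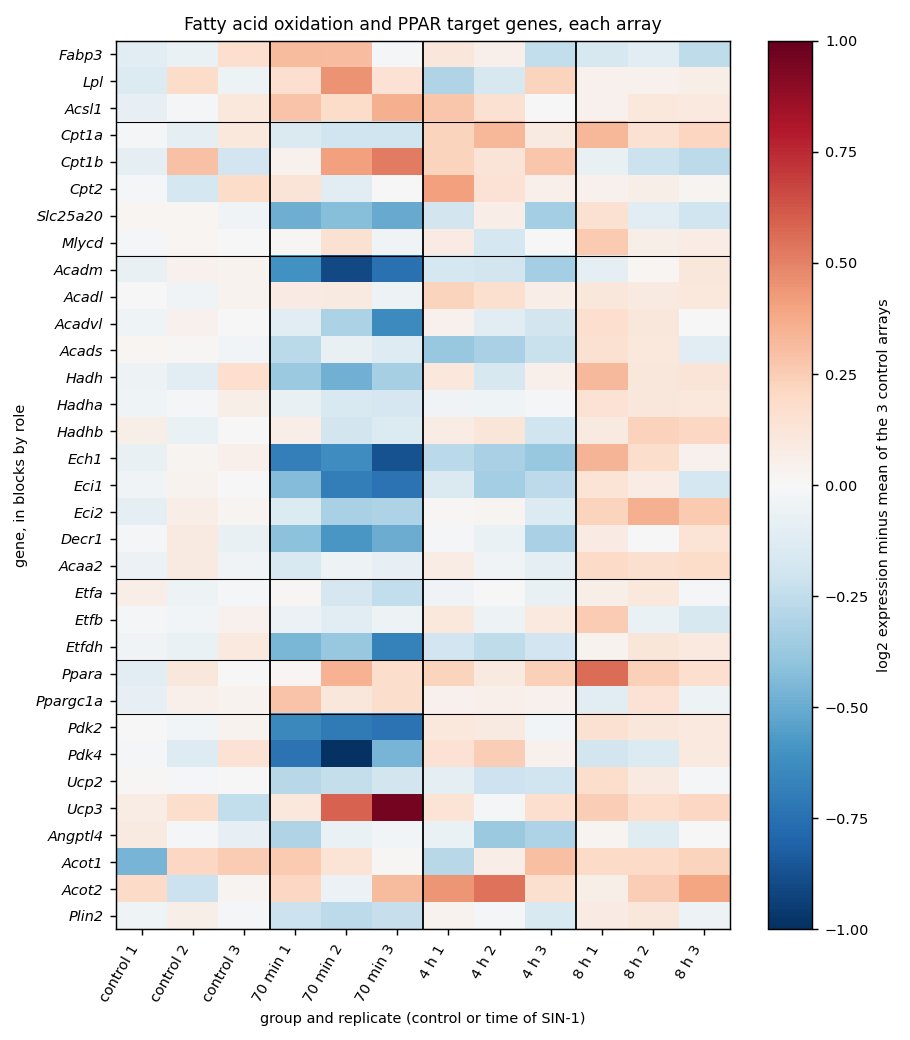
Heat map of the 33 genes (rows, grouped by role) in the 12 arrays (columns), coloured by log2 expression minus the gene's control mean, from -1 in blue to 1 in red. The 70 min columns are blue for most beta-oxidation genes, Pdk2 and Pdk4, and the 8 h columns are mostly light red, with an 8 h mean above control in 27 of the 33 genes.

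Beta-oxidation proper starts with the acyl-CoA dehydrogenases. Acadm, the medium-chain acyl-CoA dehydrogenase, read 7.91, 8.03 and 8.02 in the control arrays, 7.38, 7.08 and 7.24 at 70 min, 7.81, 7.80 and 7.65 at 4 h, and 7.89, 8.01 and 8.10 at 8 h. All 3 arrays at 70 min lay below all 9 others. The fall was 0.75 ± 0.09 (SE), or 1.69-fold, the largest among the members (limma adjusted p = 2.16e-05). Acadvl, the very-long-chain enzyme, gave 7.68, 7.76 and 7.72 in control, 7.62, 7.40 and 7.08 at 70 min, 7.76, 7.61 and 7.54 at 4 h, and 7.89, 7.83 and 7.72 at 8 h. Its 70 min arrays were all below control but scattered, with replicate 3 lowest. The fall of Acadvl was 0.35 ± 0.11 (limma adjusted p = 0.0412), and it no longer passed under 11 of the 23 alternative settings. Without 70 min replicate 3 Acadvl fell by 0.21 (limma adjusted p = 0.224). Acadl and Acads, the long-chain and short-chain dehydrogenases, differed from control by 0.04 and -0.16 and did not pass (limma adjusted p = 0.733 and 0.319).

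The later steps of the cycle split by enzyme. Hadh, the short-chain hydroxyacyl-CoA dehydrogenase, read 8.51, 8.45 and 8.73 in control, 8.19, 8.08 and 8.23 at 70 min, 8.67, 8.40 and 8.61 at 4 h, and 8.88, 8.67 and 8.69 at 8 h. Again the 70 min arrays lay below all others, and the fall was 0.39 ± 0.09 (limma adjusted p = 0.00671). Hadha and Hadhb, the trifunctional protein's subunits, and Acaa2, the mitochondrial thiolase, moved by -0.13, -0.08 and -0.09 and did not pass (adjusted p from 0.115 to 0.569). Their 95% intervals (-0.24 to -0.02, -0.26 to 0.10 and -0.24 to 0.05) leave out a fall as large as that of Acadm.

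Unsaturated fatty acids need auxiliary enzymes that move or reduce double bonds, and each of the 4 measured here fell at 70 min, a grouping made after their values were seen. Ech1, a dienoyl-CoA isomerase, read 8.40, 8.5 and 8.52 in control, 7.79, 7.85 and 7.60 at 70 min, 8.20, 8.15 and 8.10 at 4 h, and 8.81, 8.64 and 8.52 at 8 h. The groups formed steps, lowest at 70 min and still below every control array at 4 h. Its fall of 0.73 ± 0.09 was 1.66-fold (limma adjusted p = 1.86e-05). Eci1, an enoyl-CoA isomerase, read 7.72, 7.79 and 7.76 in control, 7.32, 7.07 and 7.01 at 70 min, 7.61, 7.41 and 7.49 at 4 h, and 7.89, 7.83 and 7.58 at 8 h. The 70 min arrays were below all others, with a fall of 0.62 ± 0.10 (limma adjusted p = 0.000369).

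Eci2, another enoyl-CoA isomerase that is also found in peroxisomes, read 8.5, 8.65 and 8.62 in control, 8.46, 8.26 and 8.28 at 70 min, 8.60, 8.62 and 8.46 at 4 h, and 8.81, 8.95 and 8.85 at 8 h. Here the 70 min arrays were just below control, and the 8 h arrays were above every array of the other groups. The fall at 70 min was 0.26 ± 0.08 (limma adjusted p = 0.0311) and did not pass under 8 of the 23 alternatives, among them those without control replicate 2 or 3 or 70 min replicate 2 or 3. Decr1, a dienoyl-CoA reductase, read 7.93, 8.03 and 7.86 in control, 7.53, 7.36 and 7.44 at 70 min, 7.92, 7.87 and 7.62 at 4 h, and 8.02, 7.94 and 8.08 at 8 h. Its 70 min arrays were below all others and the fall was 0.50 ± 0.09 (limma adjusted p = 0.00104).

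**Figure D2:**
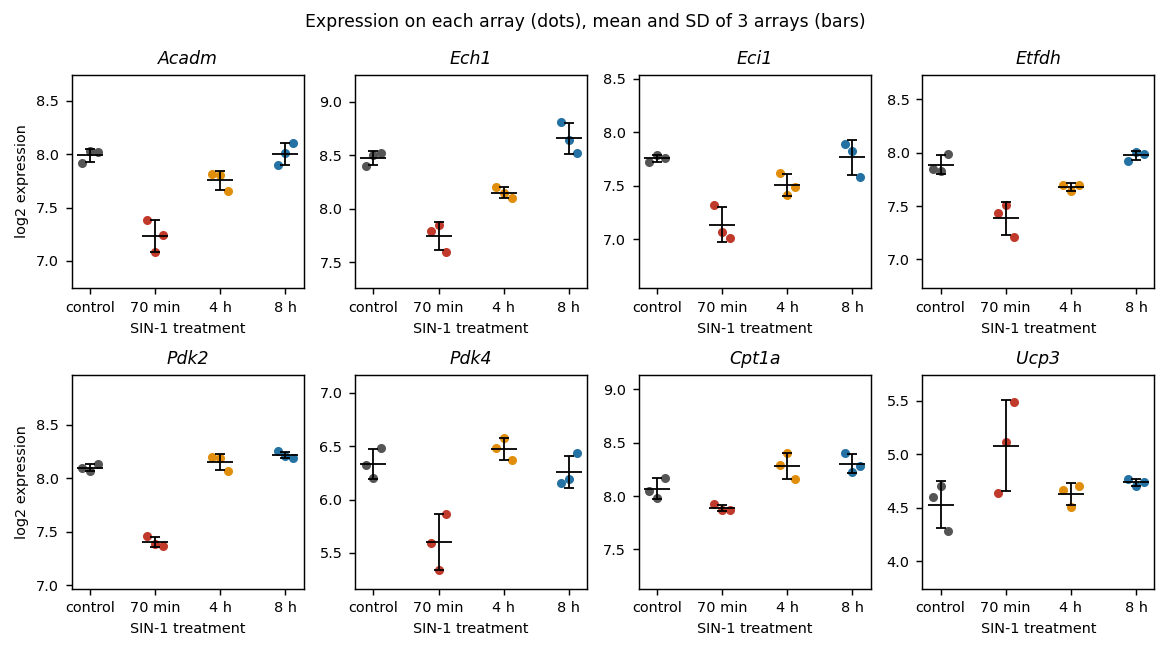
Log2 expression (vertical axis) of Acadm, Ech1, Eci1, Etfdh, Pdk2, Pdk4, Cpt1a and Ucp3 by group (horizontal axis), with 1 dot per array and the mean ± SD over 3 arrays. In the first 6 panels the 70 min dots lie below all control dots, in the Cpt1a panel the 4 h and 8 h dots lie above the 70 min dots, and in the Ucp3 panel the 70 min dots run from 4.64 to 5.49.

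Upstream of the cycle 1 of 3 uptake and activation genes and 1 of 5 carnitine shuttle genes passed. These are 33.3% and 20%, against 14.6% of all genes. Acsl1, which activates long-chain fatty acids, read 7.81, 7.87 and 8.00 in control, 8.18, 8.08 and 8.25 at 70 min, 8.18, 8.05 and 7.90 at 4 h, and 7.94, 8.00 and 7.99 at 8 h. The 70 min arrays were all above control, by 0.27 ± 0.08 (limma adjusted p = 0.0353), and the call was lost under 8 of the 23 alternatives, among them those without control replicate 1 or 2, 70 min replicate 1 or 3, or 8 h replicate 2. Fabp3, the heart fatty acid-binding protein, and Lpl, the lipoprotein lipase, differed by 0.20 and 0.25 without passing (adjusted p = 0.225 and 0.301).

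In the carnitine shuttle, Slc25a20, the carnitine and acylcarnitine carrier, read 7.37, 7.36 and 7.31 in control, 6.86, 6.92 and 6.84 at 70 min, 7.16, 7.42 and 7.01 at 4 h, and 7.5, 7.24 and 7.15 at 8 h. The 70 min arrays were the lowest and lay close together, whereas the 4 h arrays overlapped control. The fall was 0.47 ± 0.11, or 1.39-fold (limma adjusted p = 0.00662). Cpt1a, the carnitine palmitoyltransferase of most tissues and the entry step of the shuttle, ranged from 7.98 to 8.17 in control and from 7.87 to 7.92 at 70 min, a difference of -0.18 ± 0.08 that did not pass (adjusted p = 0.16). Cpt1b, its muscle counterpart, read 5.06, 5.45 and 4.97 in control, 5.20, 5.57 and 5.68 at 70 min, 5.38, 5.29 and 5.44 at 4 h, and 5.09, 4.95 and 4.90 at 8 h. Groups overlapped at every time except that the 8 h arrays were below those at 70 min and 4 h. The 70 min difference of 0.33 ± 0.15 did not pass (limma adjusted p = 0.163), and it passed under 2 alternatives, with array weights and without 70 min replicate 1. Cpt2, the inner-membrane transferase, and Mlycd, which breaks down the shuttle's inhibitor malonyl-CoA, differed by 0.01 and 0.04.

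Electrons from the acyl-CoA dehydrogenases pass through Etfa and Etfb, the subunits of the electron transfer flavoprotein, to Etfdh, its ubiquinone oxidoreductase. Etfdh read 7.85, 7.83 and 7.99 in control, 7.43, 7.51 and 7.21 at 70 min, 7.70, 7.64 and 7.70 at 4 h, and 7.93, 8.01 and 7.99 at 8 h. Its arrays fell into steps like those of Ech1, with 70 min lowest and 4 h below every control array. The fall at 70 min was 0.50 ± 0.09 (limma adjusted p = 0.000578). Etfa and Etfb differed by -0.13 and -0.07 and did not pass (adjusted p = 0.255 and 0.672).

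Pdk2 and Pdk4 encode kinases that inactivate pyruvate dehydrogenase, and Pdk4 is a widely used readout of PPAR activity. Pdk2 read 8.10, 8.07 and 8.13 in control, 7.46, 7.39 and 7.36 at 70 min, 8.20, 8.19 and 8.07 at 4 h, and 8.25, 8.21 and 8.19 at 8 h. The 70 min arrays lay far below all 9 others, and the fall was 0.70 ± 0.07, or 1.62-fold (limma adjusted p = 3.35e-06). Pdk4 read 6.32, 6.20 and 6.48 in control, 5.59, 5.34 and 5.86 at 70 min, 6.48, 6.58 and 6.37 at 4 h, and 6.15, 6.20 and 6.43 at 8 h. Its 70 min arrays spread more but were below all others, with a fall of 0.73 ± 0.13, or 1.66-fold (limma adjusted p = 0.00103).

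Of the mitochondrial uncoupling protein genes, Ucp2 was called lower at 70 min and Ucp3 higher, the latter call being the less stable. Ucp2, the widely expressed form, read 9.61, 9.58 and 9.60 in control, 9.32, 9.35 and 9.41 at 70 min, 9.50, 9.39 and 9.40 at 4 h, and 9.77, 9.68 and 9.58 at 8 h. The 70 min and 4 h arrays were all below control. The fall at 70 min was small, 0.23 ± 0.06 (limma adjusted p = 0.014), and was lost under 3 of the 23 alternatives. Ucp3, the muscle form, read 4.60, 4.71 and 4.28 in control, 4.64, 5.12 and 5.49 at 70 min, 4.67, 4.51 and 4.70 at 4 h, and 4.77, 4.71 and 4.74 at 8 h. Replicate 1 at 70 min lay among the controls, and replicates 2 and 3, the arrays of highest median, were above them. The rise of 0.55 ± 0.18 (limma adjusted p = 0.046) was lost under 15 of 22 alternatives and came to 0.11 without the 3 arrays of highest median (adjusted p = 0.858); it came to 0.35 without 70 min replicate 3 (adjusted p = 0.242).

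The remaining PPAR targets did not pass at 70 min. Plin2, which coats lipid droplets, differed by -0.24 ± 0.08 with all 3 arrays below control (limma adjusted p = 0.0522), and it passed under 6 alternatives. Angptl4, an inhibitor of lipoprotein lipase, and Acot1 and Acot2, acyl-CoA thioesterases of cytosol and mitochondrion, differed by -0.13, 0.14 and 0.16. Acot1 has a close copy in Acot2, and its probe was near background. Over all 19 members that did not pass, differences at 70 min lay between -0.24 and 0.33.

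The gene of the receptor itself did not pass in any comparison with control. Ppara read 4.31, 4.54 and 4.43 in control, 4.44, 4.77 and 4.60 at 70 min, 4.64, 4.51 and 4.66 at 4 h, and 4.99, 4.66 and 4.59 at 8 h. Only the 8 h arrays were all above control, and the differences of 0.18 ± 0.14 at 70 min and 0.32 at 8 h did not pass (limma adjusted p = 0.437 and 0.906). Ppargc1a, a coactivator of PPARs, read 2.99, 3.13 and 3.11 in control, 3.37, 3.19 and 3.26 at 70 min, 3.12, 3.13 and 3.12 at 4 h, and 2.96, 3.22 and 3.03 at 8 h. The mean level lies at the 8.9th percentile of all genes, and the 70 min arrays were all above control. The difference at 70 min of 0.19 ± 0.12 did not pass (adjusted p = 0.33).

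**Figure D3:**
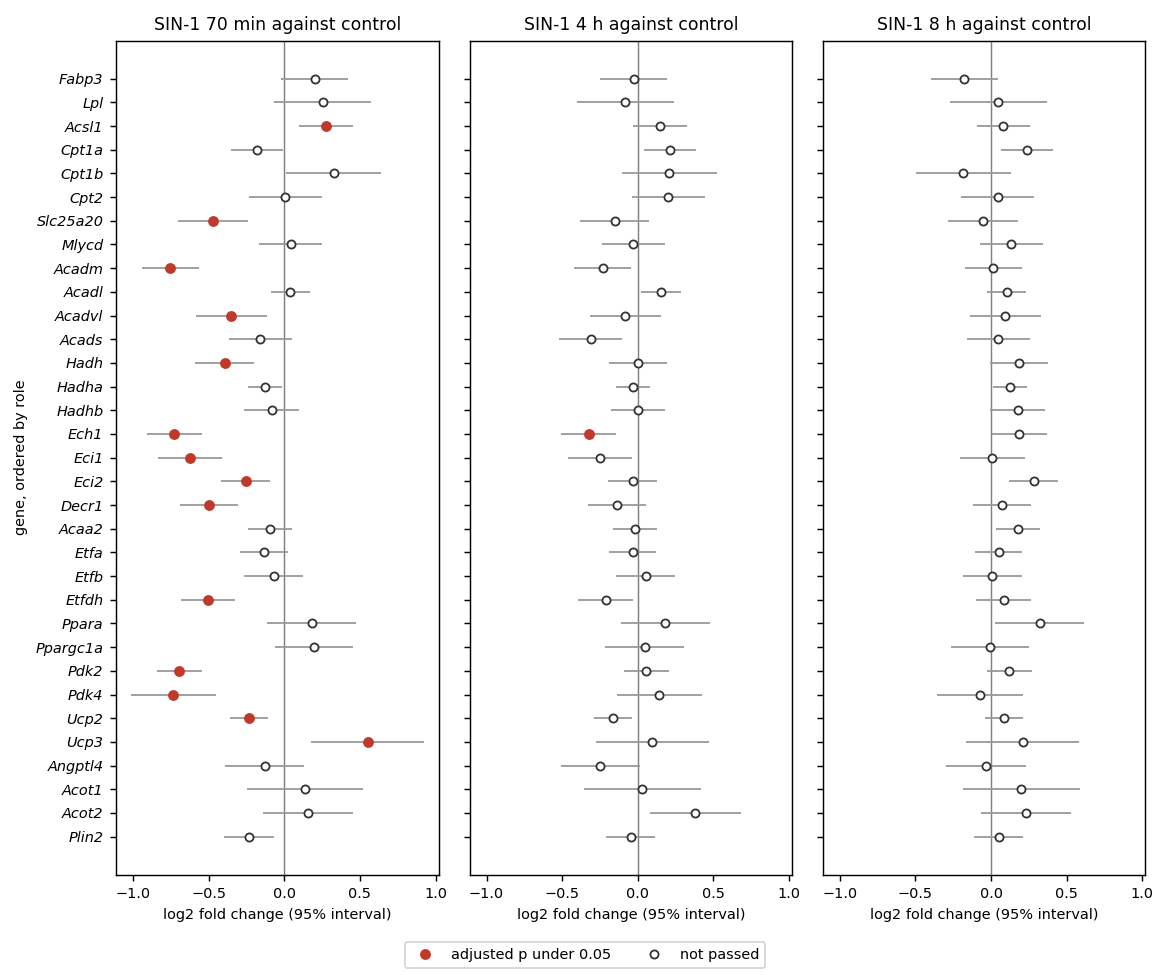
Log2 fold changes against control (horizontal axis) with 95% intervals for the 33 genes (rows) at 70 min, 4 h and 8 h; filled symbols passed limma's adjusted p under 0.05. There are 14 filled symbols at 70 min, 1 at 4 h (Ech1) and 0 at 8 h, and the intervals at 8 h lie between -0.498 and 0.617.

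Part of the fibroblast markers fell at the same time as the members. At 70 min 4 of 10 fell (40%, against 7.81% of all genes) and none rose. Lum and Dcn, which encode matrix proteoglycans, fell by 1.42 and 1.05, Col3a1 fell by 0.41 and the gelatinase gene Mmp2 by 0.51. The mean log2 level of the 10 ran from 8.939 to 8.989 in control, from 8.559 to 8.675 at 70 min, from 8.782 to 8.883 at 4 h and from 8.949 to 9.052 at 8 h. It was thus lowest at 70 min, intermediate at 4 h and back in the control range or above at 8 h. The beta-oxidation mean was also lowest at 70 min and intermediate at 4 h, but at 8 h it lay above control in every array. The marker mean rests largely on the 4 called genes, since the other markers differed from control at 70 min by -0.20 to 0.24. Col1a1 differed from control at 70 min by 0.01. The mean of 16 cardiomyocyte markers ran from 5.011 to 5.144 in control and from 5.047 to 5.336 at 70 min, with 1 of 16 higher (Myoz2, 0.62) and none lower. Endothelial markers gave 1 higher and 1 lower of 7, smooth muscle markers 1 higher of 7 (Tagln, 0.13), adipocyte markers 1 higher of 6 (Cidec), and macrophage markers 0 of 9 by limma (2 with an unadjusted p under 0.05). In such bulk samples fewer cells of a type and less RNA per cell cannot be told apart. The part of these markers in the results on the members was not tested.

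Per array, the 12 beta-oxidation genes averaged -0.26, -0.36 and -0.39 against their control mean in the 3 arrays at 70 min, -0.04, -0.11 and -0.17 at 4 h, and 0.16, 0.13 and 0.08 at 8 h. The control arrays themselves lay between -0.03 and 0.02. No array of a treated group thus fell inside this range of 3 control arrays, but 4 h replicate 1 (-0.0414) lay close to its lower end (-0.0337). All 33 members averaged -0.14, -0.16 and -0.16 at 70 min, 0.03, -0.02 and -0.06 at 4 h, and 0.12, 0.08 and 0.05 at 8 h. Their control arrays lay between -0.036 and 0.024, a range that held 4 h replicate 2 (-0.017). Over all 18166 genes the array means stayed within 0.03 of the control mean, which RMA largely fixes because it equalises the arrays' distributions.

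**Figure D4:**
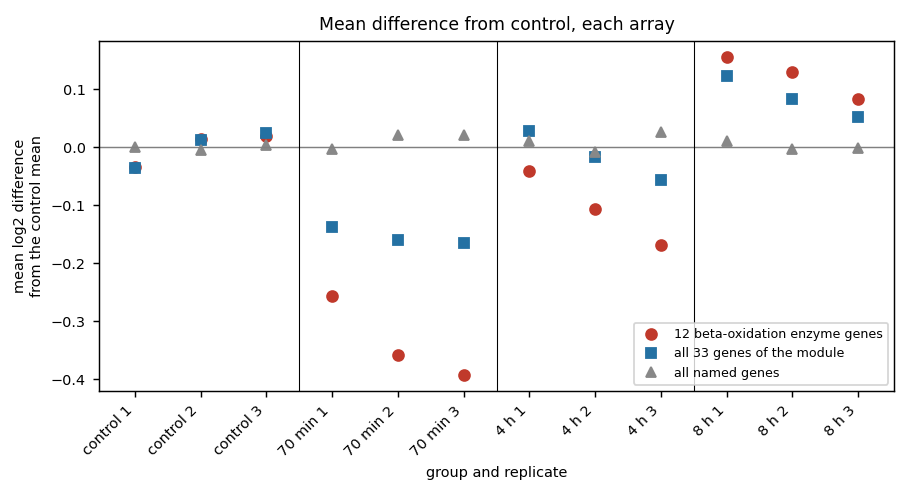
Mean log2 difference from the control mean (vertical axis) in each of the 12 arrays, by group (horizontal axis), for the 12 beta-oxidation genes, all 33 members and all named genes. The beta-oxidation mean is -0.26 to -0.39 at 70 min and 0.08 to 0.16 at 8 h. The mean of all genes stays within 0.03 of 0, which RMA largely fixes by equalising the arrays.

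At 4 h Ech1 alone differed from control, with a fall of 0.32 (limma adjusted p = 0.0446), so that 3.03% of the members were called, all lower, against 3.85% of all genes (1.77% lower). That call was lost under 10 of the 23 alternatives, among them leaving out any 1 control or 4 h array. The 9 members with unadjusted p under 0.05 stand against 15.1% of all genes at that level. The median log2 fold change was -0.03 over the members and 0.01 over all genes. Acot2 had the largest difference of the set (0.38) and did not pass (limma adjusted p = 0.182), nor did Acads (-0.31, adjusted p = 0.104).

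At 8 h 0 of the 33 members were called by limma, as against 5 genes (0.0275%) of all those tested; 6 members had an unadjusted p under 0.05, against 5.47% of all genes. The 8 h mean was above control in 27 members (81.8%, against 54.5% of all genes) and in all 12 beta-oxidation genes. In 9 members all 3 arrays lay above control (27.3%, against 7.98% of all genes). The differences were small. The median was 0.08, and the median half-width of the 95% interval was 0.195, so rises of that order were not detectable one gene at a time. Eci2 had the smallest unadjusted p of the set, with 0.28 (95% interval 0.12 to 0.44; limma adjusted p = 0.495), and passed with array weights (adjusted p = 0.0439). Cpt1a stood at 0.24 (interval 0.06 to 0.41; adjusted p = 0.823).

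From 70 min to 4 h 9 of the 33 members were higher and none lower (27.3% called, against 7.63% of all genes, 4.48% higher and 3.15% lower). They were Cpt1a, Acadm, Hadh, Ech1, Eci1, Decr1, Etfdh, Pdk2 and Pdk4. In the fit of brighter genes alone 34.6% of the 26 members were called, against 17.5% of all genes there. The kinases led, Pdk4 by 0.88 (1.84-fold, limma adjusted p = 0.000399) and Pdk2 by 0.75 (1.68-fold, adjusted p = 2.13e-06), followed by Acadm at 0.52 (adjusted p = 0.00134). Cpt1a went from 7.87 to 7.92 at 70 min to between 8.16 and 8.40 at 4 h, a rise of 0.40 (adjusted p = 0.0052). This comparison and the next ones share the 70 min or 4 h arrays with those above, so a low 70 min array enters both. The calls of Pdk2 and Pdk4 held under all 23 alternatives for single genes. Those of Etfdh, Eci1 and Decr1 were lost under 16, 8 and 8 of them, each without 4 h replicate 1 or 70 min replicate 3 among others, and that of Hadh without 4 h replicate 1 or 70 min replicate 2. The count was 5 without 4 h replicate 1 and 2 without the 3 arrays of highest median (against 1.75% of all genes).

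From 4 h to 8 h 3 members were higher, Ech1 by 0.51 (limma adjusted p = 0.0023), Eci2 by 0.31 (adjusted p = 0.0282) and Ucp2 by 0.25 (adjusted p = 0.0275). That is 9.09% of the members against 3.51% of all genes (1.97% higher), or 19.2% against 8.95% in the fit of brighter genes alone. The count ranged from 0 to 5 with the processing. Without 4 h replicate 3 or 8 h replicate 2 it was 1, Ech1. The call of Eci2 was also lost without 8 h replicate 3, and that of Ucp2 without 4 h replicate 2 or 8 h replicate 1.

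Over the whole span from 70 min to 8 h 17 members were higher and 2 lower, 57.6% called against 16% of all genes (9.56% higher and 6.43% lower). In the fit of brighter genes alone 69.2% of the 26 members were called, against 32.7% of all genes there. The higher ones included 10 of the 12 beta-oxidation genes, all but Acadl and Acads, led by Ech1 with 0.91 (1.88-fold, limma adjusted p = 1.29e-06) and Acadm with 0.77 (adjusted p = 1.4e-05). Hadha (0.25), Hadhb (0.26) and Acaa2 (0.27) rose as well (adjusted p = 0.00292, 0.0475 and 0.0103), although the call of Hadhb was lost under 12 of the 23 alternatives, among them those without any 1 control array, 70 min replicate 2 or 3, or 8 h replicate 2 or 3. Outside the cycle Pdk2 (0.82), Pdk4 (0.66), Etfdh (0.59), Slc25a20 (0.42), Cpt1a (0.42), Ucp2 (0.32) and Plin2 (0.28) were higher. Of these calls that of Plin2 was lost without 70 min replicate 2 or 3 or 8 h replicate 1 or 2, and that of Slc25a20 without 8 h replicate 1; in the cycle that of Acadvl was lost without 70 min replicate 3. Cpt1b fell by 0.51 and Fabp3 by 0.38 (limma adjusted p = 0.0265 and 0.0192), and both calls were lost without 70 min replicate 2 or 8 h replicate 3. The call of Cpt1b was also lost without 70 min replicate 3 or 8 h replicate 2, and that of Fabp3 without 70 min replicate 1. Without the 3 arrays of highest median, which leaves 1 array at 70 min, Cpt1b differed by -0.23, Acadvl by 0.20 and Hadhb by 0.11. Cpt1a, Slc25a20 and Eci1 then stood at 0.38, 0.44 and 0.44, and Hadha, Acaa2 and Plin2 at 0.20, 0.33 and 0.26.

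The order of the group means restates the course above, since it comes from the same values and adds no separate support. For these orders no share among the brighter genes alone was computed. The mean rose from 70 min to 4 h to 8 h in 18 of 33 members (54.5%), among them 10 of the 12 beta-oxidation genes, against 21.5% of all genes. The 70 min mean was the lowest of the 4 groups in 19 members (57.6%, against 30% of all genes), and the 8 h mean was the highest in 20 (60.6%, against 23%). Neighbouring means often lay within the spread of their arrays, so these orders describe the set and not each gene. The F test over the 4 groups called 15 of the 33 members (45.5%, against 15.3% of all genes). In the fit of brighter genes alone it called 65.4% of the 26 members, against 32.1% of all genes there.

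Other genes of the pathway, 81 measured of 94 listed, were counted in the same fit. At 70 min 14 fell and 5 rose, 23.5% called with 17.3% lower, against the 14.6% and 7.81% of all genes given above, and their median difference was -0.02. Of 16 receptors and coregulators only Rxrb fell, by 0.30 (limma adjusted p = 0.0383). Ppard, Pparg and Rxra, the other PPARs and the alpha RXR, differed by 0.19, 0.16 and -0.11 without passing, and Esrrg by 0.16. Esrra, the estrogen-related receptor that also drives oxidative genes, read 5.85, 5.80 and 6.13 in control and 6.27, 6.13 and 6.53 at 70 min, where control replicate 3 and 70 min replicate 2 were both at 6.13, and its difference of 0.38 ± 0.13 missed the threshold (adjusted p = 0.0516).

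Acadsb, the short/branched-chain acyl-CoA dehydrogenase, fell furthest of these genes. It read 7.0, 6.87 and 7.21 in control, 6.50, 5.44 and 6.0 at 70 min, 6.43, 7.11 and 6.75 at 4 h, and 6.59, 6.87 and 6.81 at 8 h, and the 70 min arrays were below control but widely scattered. The fall was 1.05 ± 0.21 (limma adjusted p = 0.00203). Crot, the peroxisomal carnitine octanoyltransferase, fell by 0.64 and the thioesterase gene Acot13 by 0.63 (adjusted p = 0.00171 and 0.00793). Cidec, a lipid droplet protein, and Creb3l3, a liver transcription factor, rose by 0.65 and 0.58 (adjusted p = 0.0142 and 0.0272), the first at a control level of 3.90, below the median of the unlisted probes.

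The counts by list at 70 min stand beside 6.76% of all genes called higher and 7.81% lower, and 16.7% lower of the brighter genes. Peroxisomal beta-oxidation had 4 lower of 11 (36.4%). They were Hsd17b4 (-0.47), Abcd3 (-0.39), Acox3 (-0.37) and the catalase gene Cat (-0.34), named after their values were seen, as are the further genes in this paragraph. The remaining carnitine and malonyl-CoA genes had 3 lower of 6 (50%), with Cpt1c (-0.41) and Crat (-0.25) beside Crot. The other mitochondrial acyl-CoA enzymes had 2 lower of 7 (28.6%), with Echs1, the short-chain enoyl-CoA hydratase, at -0.42. In uptake and activation 2 of 14 were higher (Acsl4 0.57, Acot9 0.41) and 2 lower (Acot13 and the fatty acid transporter gene Slc27a1, -0.49). Lipid droplet genes split likewise, with the lipases Pnpla2 (-0.37) and Mgll (-0.54) lower and Cidec and the lipase activator gene Abhd5 (0.42) higher, of 13. These are 14.3% each way for uptake and activation and 15.4% each way for lipid droplets. The lower shares are near that of the brighter genes. None of 8 further pyruvate dehydrogenase genes, which include the kinases Pdk1 and Pdk3, passed by limma (0 had an unadjusted p under 0.05). Of 6 PPAR targets known from liver 1 rose (16.7%, against 6.76% of all genes), Creb3l3.

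At 4 h 2 of the 81 were higher than control, Abcd2, a peroxisomal transporter (0.60, limma adjusted p = 0.0455), and Lpin1, a PPAR coregulator and phosphatidate phosphatase (0.56, adjusted p = 0.0172), 2.47% against 2.08% of all genes called higher. At 8 h 0 were called by limma and 6 of the 81 had an unadjusted p under 0.05, against 5.47% of all genes. From 70 min to 4 h 8 were higher and 2 lower, 12.3% called against 7.63% of all genes. The largest differences were those of Acadsb (0.78), Crot (0.70), Lpin1 (0.62), Slc27a1 (0.60) and Abcd2 (0.59). From 4 h to 8 h Mgll (0.48) and Pnpla2 (0.39) were higher, 2.47% against a similar 1.97% of all genes called higher. From 70 min to 8 h 14 were higher and 4 lower, with Acsl4 (-0.84), Acot13 (0.84), Slc27a1 (0.79), Acadsb (0.78) and Mgll (0.72) at the front. The 22.2% called over that span stands between the 57.6% of the members and the 16% of all genes.

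**Figure D5:**
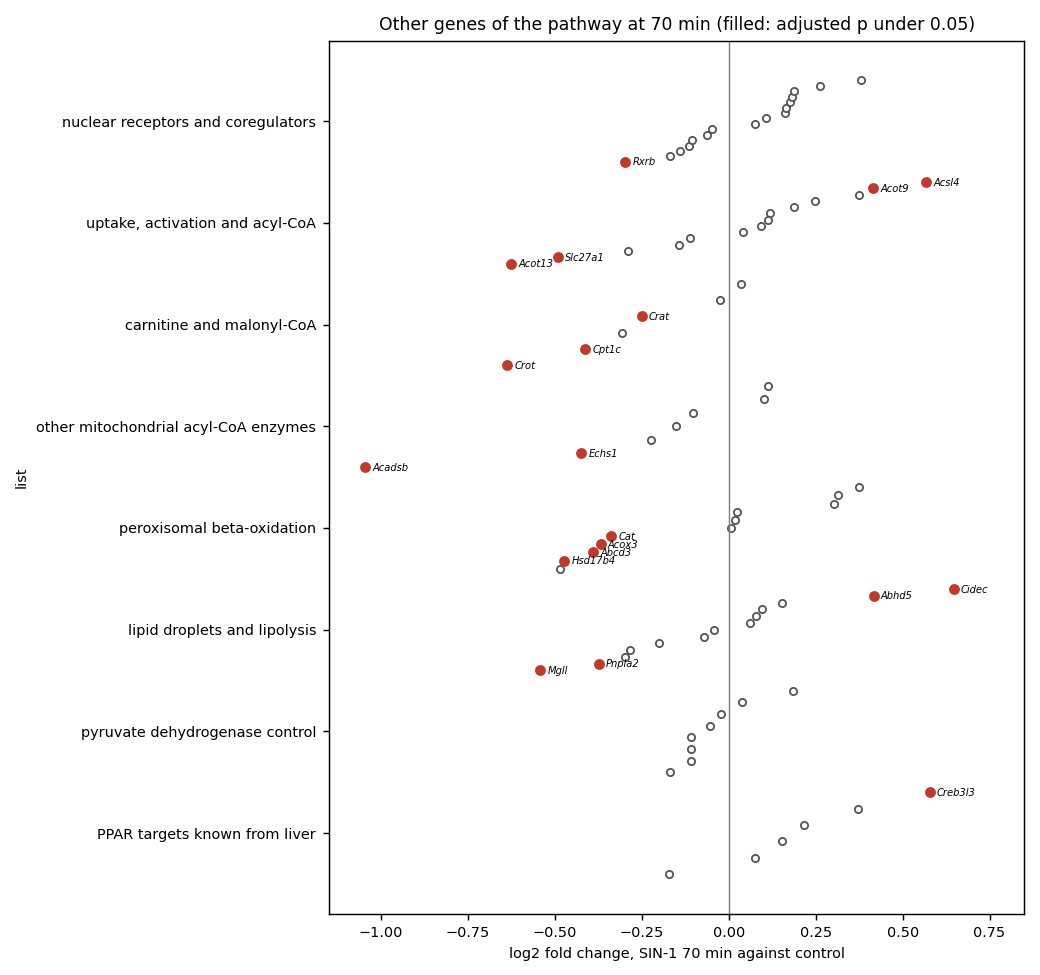
Log2 fold change at 70 min against control (horizontal axis) of 81 further genes of the pathway, by list (rows of points); filled points passed limma's adjusted p under 0.05. The 14 filled points on the left are spread over 6 lists, with Acadsb farthest at -1.05, and the 5 on the right are Cidec, Creb3l3, Acsl4, Abhd5 and Acot9.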

How the data were processed

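Per the labels' protocols, 100 ng of total RNA from each of 12 samples was amplified and given a biotin label for array hybridisation in a single colour. The authors deposited 1 table of 36685 probes, taken as log2 expression. The submitters' processing notes name RMA and Affymetrix Expression Console (version 1.3.1.187). The table states no unit, and the scale was read from the values (1.19 to 13.63). RMA equalises the arrays' distributions, so a change in total RNA per cell does not show, and it compresses folds near background. A probe was named where the platform annotation gave it 1 gene symbol (18511 probes; 575 had several and 17599 were not listed). The brightest probe over the arrays stood for a gene with more than 1. Precision is limited by the number of arrays; over all genes the SE of a difference had a median of 0.131.

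All 18166 genes were fitted over the 12 arrays with limma 3.58.1 in R 4.3.3, with group as the term and a trend in the prior variance. The 6 two-sided comparisons and the F test were adjusted by Benjamini-Hochberg within each, and an adjusted p under 0.05 is a call. The calculation was tested on simulated data. The members, the further pathway genes and the marker lists were chosen with earlier results of these data known. Values in every array were to be given for members called against control and for Ppara, Ppargc1a and Cpt1b; of the other pathway genes up to 5 called per comparison by size, and Ppard, Pparg, Rxra, Esrra and Esrrg, were to be named. Cd36 was not analysed here. Alternatives were a replicate block, other priors, array weights, scalings, probe and gene filters, a fit of the compared groups only, each array left out and a minimum fold of 1.5. After the data were seen, a fit without the 3 arrays of highest median and another that took the array median as a covariate were added. Background correction and scan batch could not be varied from this table. Promoter windows came from RefSeq's table for GRCr8. Figures were drawn with matplotlib 3.10.9.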

Additional observations from a re-analysis of the deposited data

How the results depend on the processing

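The counts of members called (14 at 70 min, 1 at 4 h and 0 at 8 h against control; 9 for 4 h against 70 min, 3 for 8 h against 4 h and 19 for 8 h against 70 min; 15 by the F test) were recomputed under each alternative. Of 4512 values for single genes, over the 6 comparisons and 23 settings, 150 lost and 26 gained a call, 99 uncalled ones turned sign, and 0 called ones did. Leaving out 1 array at a time gave 10 to 14, 0 to 1, 0 to 0, 5 to 12, 1 to 4, 15 to 20 and 11 to 17, in the order above. Of all genes 9.64% to 17.1%, 2.05% to 4.17% and 0.0275% to 0.0385% were then called against control. Between times the shares ran 4.87% to 9.9%, 1.65% to 3.69% and 11% to 18.6%, and by the F test 11.1% to 16.9%. The 4 h count was 0 without any 1 of the control or 4 h arrays or 8 h replicate 2. Without a trend in the prior the count was 9 at 70 min, 0 at 4 h and 1 for 8 h against 4 h. Of all genes 11.6%, 1.87% and 1.73% were then called. Array weights gave 1 at 8 h and 5 for 8 h against 4 h, beside 0.204% and 4.68% of all genes. Centring the arrays gave 0 at 4 h and 1 for 8 h against 4 h, beside 1.88% and 1.65% of all genes. That last comparison gave 5 with brighter genes only and 1 with the compared groups only. The shares were 8.95% of the brighter genes and 1.82% of all genes. Without the 3 arrays of highest median the counts were 6 at 70 min, 0 at 4 h, 2, 1 and 10 between times and 6 by the F test. With a fold of at least 1.5 they were 5 at 70 min, 0 at 4 h and 2, 0 and 6 between times. Of all genes 4.07%, 0.98%, 2.18%, 0.82% and 4.17% then passed. Fewer samples or a second criterion enter by construction in these last settings, and for the others the cause was not tested. With the replicate block the counts were 14, 1, 0, 8, 3 and 18, and 14 by the F test. The shares of all genes were 14.5%, 3.75%, 0.0495%, 7.47%, 3.42% and 15.9%, and 15.1% by the F test. The numbers are not shown to pair the arrays: over 18 pairs with the same number the deviations from the group means correlated from -0.322 to 0.24, with 5 over 0.1, and 6 of 12 arrays correlated best with their own number. The block moved no count by over 1.5 times. The call of Ucp3 at 70 min was lost with it and Plin2 passed. Signal near background limits what can be said of Ppargc1a, Acot1, Lpl, Ppara and Ucp3.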
